A study of Mus musculus with 9 samples.

Results

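The 4 vehicle samples of a mouse heart study were described here for how their RNA sequencing counts were shared out among genes. They were the 4 of 9 samples whose titles name them as control. All 9 came from heart tissue of C57BL/6 mice, an inbred laboratory strain. These 4 are labelled as given vehicle, and the other 5, given oxaliplatin at 10 mg/kg, entered no result. Hearts were taken once the oxaliplatin arm had been treated for 8 weeks, and only RNA with an integrity number over 8 went on to sequencing. The labels name no transgene or other allele, and give neither age, sex nor which part of the heart was taken. They list the 4 as separate samples without saying how they relate, so the spread given here may be technical in part.

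Heart muscle contracts without rest and makes its ATP mainly in mitochondria. Each mitochondrion carries its own small circular genome, which encodes core subunits of the respiratory chain and of ATP synthase together with the RNAs needed to translate them. The remaining subunits come from the nucleus, as do the sarcomere proteins, the thick and thin filaments whose sliding shortens the cell. Many of these proteins exist as families of paralogs, of which a heart cell uses a particular set, and atrial and ventricular muscle differ in some of them.

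The deposited table gave normalized counts for 13795 genes, with totals of 34.0, 36.9, 36.9 and 30.1 M (mega, in counts) in vehicles 1 to 4 and an estimated 28.5 to 34.3 M reads behind each. The table lacks genes of low count, the smallest maximum over its samples being 40.6. Across 13667 genes with a mean of at least 10, pairs of samples correlated with Pearson r from 0.968 to 0.983 on log2(normalized count + 1), a description across genes, which are not independent. The cardiomyocyte markers Myh6, Actc1, Tnnt2, Tnni3, Tnnc1, Mybpc3, Ryr2, Actn2, Ttn and Csrp3 were all measured and summed to 1302690, 1410600, 1601830 and 1604500 normalized counts. Of lung markers 1 of 5 was in the table, Sftpc, at 0 in the 4 samples. The table held 3 of 9 skeletal muscle markers, and Myh1, Myh2, Myh4 and Actn3 were not among them. Vehicle 1 stood apart in atrial and immediate early genes, and vehicle 4 had the lowest total and differed in the order of genes by transcript length. Both are described with their values further on.

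Counts were concentrated on few genes. The share of a gene is its percentage of all normalized counts of a sample. Ranked by mean share, 11 genes held 25% of the signal, 73 held 50%, 656 held 75% and 2865 held 90%. The number that held 50% was 73, 61, 64 and 97 in vehicles 1 to 4, so vehicle 4 was the least concentrated. The 25 leading genes took 36.2%, 39.2%, 38.9% and 33.0%, lowest in vehicle 4. Of these 25, 10 were mitochondrially encoded, 4 were nuclear copies of mitochondrial genes, 1 was the annotated ribosomal RNA CT010467.1 and 10 were other nuclear genes. Among the 10 were 6 sarcomere genes.

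The most abundant gene was mt-Co1, the catalytic core subunit of cytochrome oxidase, at 5.85%, 6.38%, 6.10% and 5.37% of counts in vehicles 1 to 4. The cytochrome b gene mt-Cytb, of complex III, followed with 3.45%, 3.62%, 3.46% and 2.68%. The highest nuclear gene that is no copy was Tpm1, tropomyosin, which winds along actin (chromosome 9 from 67022590 to 67049406), at 1.35%, 1.43%, 1.48% and 1.52%. Its 4 values lay between 1.35% and 1.52%, so the share of Tpm1 varied less than that of mt-Co1 or mt-Cytb. Slc25a4, the ADP/ATP carrier that exports ATP from mitochondria, took 1.33% ± 0.0917 (SD, n = 4) and cardiac actin Actc1 1.05% ± 0.175. Myh6, the alpha myosin heavy chain that drives contraction in adult mouse heart, took 0.748%, 0.693%, 0.756% and 1.37%, high in vehicle 4 and similar in the other three. The fatty acid carrier Fabp3 took 0.630% ± 0.0113, and the creatine kinases Ckmt2 and Ckm, which move energy from mitochondria to filaments as creatine phosphate, took 0.530% ± 0.0687 and 0.505% ± 0.0347.

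**Figure D1:**
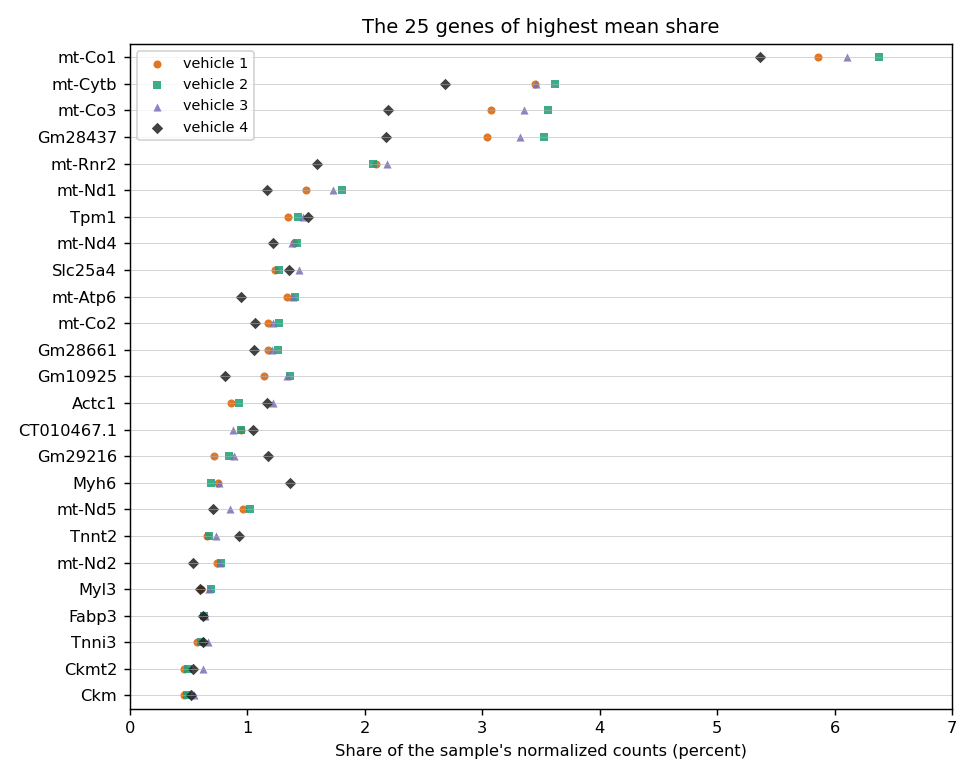
Share of each sample's normalized counts, in percent on a linear axis, for the 25 genes of highest mean share, 1 point per vehicle sample. mt-Co1 lies between 5.37% and 6.38%, and most mitochondrially encoded genes are lowest in vehicle 4, where Myh6 and Tnnt2 are highest.

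Dividing by exon length puts genes on a common scale, normalized counts per kilobase. On it the order changed, with mt-Co3 first, then its nuclear copy Gm28437, mt-Co1 and mt-Cytb. The first nuclear gene that is no copy was Fabp3, ranked 14, at 264166 ± 28011 normalized counts per kilobase (SD, n = 4). Actc1 ranked 16 at 222405 ± 40626 and Slc25a4 18 at 194613 ± 23997. The means of Actc1 and Slc25a4 differed by less than the SD of Actc1 over samples. Within each sample Actc1 was nevertheless above Slc25a4, with 181624 beside 178472 in vehicle 1 and 278606 beside 226169 in vehicle 3. The beta globin Hbb-bs ranked 19 at 187780 ± 95372, a spread larger than its distance from Fabp3. Titin, Ttn, the giant spring of the sarcomere, had 74099.8, 66264, 76901 and 116798 normalized counts, but per kilobase it ranked 1527 at 715 ± 194, since its exons span 116825 bases.

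Mitochondrially encoded genes took 22.4%, 24.1%, 23.2% and 18.1% of normalized counts in vehicles 1 to 4, a mean of 21.9% ± 2.66 (SD, n = 4). The 13 protein genes made up 19.8% ± 2.40, the 2 ribosomal RNAs 2.17% ± 0.281 and 4 transfer RNAs 0.00472% ± 0.00156. Vehicle 4 was lowest in 13 of 13 protein genes and vehicle 2 highest in 11, where 31.7% and 21% of all genes had that place. Per length the class took 34.6% ± 2.77 of the signal. The ribosomal RNAs were unequal, with mt-Rnr2 of the large subunit at 436893 ± 92706 normalized counts per kilobase and mt-Rnr1 of the small subunit at 67536 ± 10470.2. mt-Nd6, the only protein gene on the other strand of the mitochondrial genome, stood at 139390 ± 17586 per kilobase and had a CV of 12.6% over the samples, where mt-Co3 had 27.4%.

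A further 6.65% ± 0.834 of counts (SD, n = 4) was assigned to 11 nuclear pseudogenes that copy mitochondrial genes, listed by a match of at least 95% identity over at least 80% of the pseudogene. With them the mitochondrial share was 28.6% ± 3.47. Of the 11, 7 lie on chromosome 1 between 24611535 and 24616197 on GRCm38, 3 on chromosome 2 and 1 on chromosome 13. Mitochondrial DNA copied into the nucleus is a known feature of mammalian genomes. Where a copy is identical to its source, a read cannot be placed in one rather than the other, so the counts of both genes are uncertain. The sequences are those of GENCODE M21, read 5′ to 3′ on the transcript, with capitals at the base that differs. The first pair is shown because most of its counts were assigned to the copy, the second because it differs in a single aligned base, and the third because there is none to separate it.
mt-Nd3, bases 1 to 33: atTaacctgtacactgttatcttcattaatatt
Gm28438, same stretch: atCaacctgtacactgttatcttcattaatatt
mt-Co1, bases 1063 to 1096: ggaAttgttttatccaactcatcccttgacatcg
Gm29216, same stretch: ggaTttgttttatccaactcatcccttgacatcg
mt-Co3, bases 362 to 422: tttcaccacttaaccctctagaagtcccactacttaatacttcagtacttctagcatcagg
Gm28437, same stretch: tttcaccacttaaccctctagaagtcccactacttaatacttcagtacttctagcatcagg

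Gm28437 was identical to mt-Co3, cytochrome oxidase subunit 3, over all its 783 bases. Its ratio to mt-Co3 was 0.991, 0.991, 0.991 and 0.991 in vehicles 1 to 4, nearly equal in every sample. Gm28661, identical to mt-Co2 over 681 bases, had ratios of 0.995, 0.994, 0.994 and 0.993. Gm10925, identical to mt-Atp6 over 678 bases, had 0.854, 0.965, 0.965 and 0.854. Identity did not go with an equal ratio throughout. Gm10222, identical to mt-Nd4l over 294 bases, had 0.562, 0.569, 0.520 and 0.481, and Gm28439, identical to mt-Nd4 over 876 bases, had 0.0140, 0.0158, 0.0153 and 0.0111.

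Gm28438 differs from mt-Nd3 by 1 base in 345, T3C, where the mitochondrial base comes first and positions count from the first base of the mitochondrial transcript. Its ratio to mt-Nd3 was 67.0, 45.3, 48.1 and 72.1, so nearly all counts went to the copy. mt-Nd3 itself had 1303, 1792, 1754 and 742 normalized counts and was the lowest of the 13 protein genes, at 4016 ± 1409 per kilobase. With its copy it took 0.225% ± 0.0333 of counts, close to mt-Atp8 (0.233% ± 0.0481) and mt-Nd6 (0.209% ± 0.0110). Gm29216 differs from mt-Co1 by 1 base in 483, A1066T, and had ratios of 0.123, 0.132, 0.146 and 0.219. Vehicle 4 had the highest share of Gm29216 and the lowest of mt-Co1. With copies added, mt-Co1 took 6.90% ± 0.339 and mt-Co3 6.07% ± 1.19, against 5.93% ± 0.429 and 3.05% ± 0.599 without. How the authors treated reads with several places is not given in the sources used here.

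Nuclear genes of the sarcomere took 7.26%, 7.24%, 7.63% and 8.91% of counts, a mean of 7.76% ± 0.790 (SD, n = 4) from 40 measured genes. Vehicle 4 had the highest share. As a summed level the class had 2470790, 2673990, 2819870 and 2683140 normalized counts, and vehicle 4 then lay among the others, since its total was lower. The thin filament held 4.25% ± 0.390, the thick filament 2.08% ± 0.306 and titin with the Z-disc and M-band 1.43% ± 0.191. Per length the class took 4.45% ± 0.537. Actc1 led it at 222405 ± 40626 normalized counts per kilobase, followed by the ventricular light chain Myl3 at 109184 ± 17639 and the inhibitory troponin Tnni3 at 103561 ± 13075, and Myl3 and Tnni3 differed by less than their SDs. Tpm1 stood at 76784 ± 7113 and the calcium-binding troponin Tnnc1 at 68092 ± 6648. Myosin heavy chain Myh6 had 44638 ± 11104, with a mean close to that of its regulatory light chain Myl2 at 44550.3 ± 6778. Only the means were close, since Myh6 was highest in vehicle 4, at 61099, and Myl2 was not. In the Z-disc, Tcap, the cap protein of titin, led with 60372 ± 9322, above the actin cross-linker Actn2 at 20389 ± 819.7. The stress-responsive Ankrd1 had 64437, 63148, 30057 and 40951 normalized counts, high in vehicles 1 and 2.

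The promoters of Actc1 and Myl3, the highest sarcomere genes per length, are shown because these genes share a motif there. The windows are the 250 bases before the start in RefSeq on GRCm38.p6, and capitals mark motif matches.
Actc1 (chr2:114052876-114053125, minus strand): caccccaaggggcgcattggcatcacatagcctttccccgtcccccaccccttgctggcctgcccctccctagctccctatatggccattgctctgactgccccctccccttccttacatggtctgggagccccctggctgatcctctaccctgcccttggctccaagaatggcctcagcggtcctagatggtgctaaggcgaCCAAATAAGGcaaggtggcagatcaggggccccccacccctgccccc
Myl3 (chr9:110763428-110763677, plus strand): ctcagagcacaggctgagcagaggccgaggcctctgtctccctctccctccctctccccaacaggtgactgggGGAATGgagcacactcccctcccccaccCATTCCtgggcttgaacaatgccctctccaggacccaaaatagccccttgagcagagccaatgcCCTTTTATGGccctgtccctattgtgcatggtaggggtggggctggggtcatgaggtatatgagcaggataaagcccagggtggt

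The capitals in Actc1, starting 47 bases before the start, are a CArG box, the known binding site of serum response factor, in which a run of A and T stands between CC and GG. In Myl3 a CArG box lies 85 bases before the start, and CATTCC, the core of the muscle CAT element, 149 bases before it and, on the other strand, 177 before it. Both strands were searched, and the CArG box reads alike on both. The CC that ends CATTCC can also open a CArG box, though in these windows the matches are separate. A CArG box was found for 7 of 33 sarcomere genes with a window, 21.2%, for 0 of 70 nuclear respiratory chain genes for 1.45% of the 10076 genes of the deposited table with a window and for 1.62% of 27025 RefSeq genes. CATTCC was found for 39.4% of the sarcomere genes, 10.0% of the respiratory chain genes, 13.1% of genes in the table and 14.4% of RefSeq genes. TATAAA was found for 9.09% of sarcomere genes, close to the 8.28% of genes in the table and below the 14.3% of RefSeq genes. AGATAA, which the factors of the GATA family bind, was found for 18.2%, 7.25% and 11.4%. These are matches of letters, and no binding was measured.

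Nuclear genes of the respiratory chain and ATP synthase took 7.84%, 8.06%, 8.58% and 7.75% of counts, 8.06% ± 0.371 on average (SD, n = 4) from 85 genes. ATP synthase held 2.49% ± 0.0879, complex I 2.42% ± 0.133, complex IV 1.62% ± 0.0941, complex III 1.03% ± 0.0593 and complex II 0.488% ± 0.00954. Their spread over samples was small, and per length the class took 8.35% ± 0.356, more than the sarcomere. The muscle form of cytochrome oxidase subunit 6a, Cox6a2, was the highest of the 85 at 164059 ± 17433 normalized counts per kilobase, followed by Cox8b at 75349.8 ± 16553 and Cox4i1 at 64070 ± 7545. In complex I Ndufa4 led at 41251 ± 8426, a subunit now usually placed in cytochrome oxidase, and Ndufb10 followed at 32674 ± 4612. The ATP synthase subunit genes Atp5a1 and Atp5b had 50309.5 ± 2554 and 35159.7 ± 2024. The medians of the complexes lay close together. They were 13988 normalized counts per kilobase for complex I, 17744 for complex II, 19475 for complex III, 18319.9 for complex IV and 15794 for ATP synthase. The 13 mitochondrially encoded genes had a median of 399944, without their copies.

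The other energy classes were smaller. Energy transfer genes, among them the ADP/ATP carriers and creatine kinases, took 2.90% ± 0.218 of counts. The TCA cycle with pyruvate dehydrogenase took 2.28% ± 0.0696, led per length by the malate dehydrogenase Mdh1 (52579 ± 5008 normalized counts per kilobase). Glycolysis and lactate genes took 2.09% ± 0.117, led by the lactate dehydrogenase Ldhb (81000.5 ± 7948). Fatty acid oxidation genes took 1.57% ± 0.0334, led by Etfb of the electron transfer flavoprotein (39828 ± 4647). Myoglobin, Mb, which binds oxygen in muscle, stood at 97054 ± 8473. Calcium handling genes took 1.07% ± 0.113, and S100a1, a calcium sensor of the sarcoplasmic reticulum and sarcomere, led them at 47269 ± 6462. Chaperones took 1.30% ± 0.0492 and iron and antioxidant genes 1.14% ± 0.0612, with the small heat shock protein Hspb7 at 45718 ± 9285 and the ferritin heavy chain Fth1 at 45404 ± 5287. Extracellular matrix genes took 0.207% ± 0.0527.

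Globin genes took 1.66%, 1.46%, 0.592% and 0.900% of counts, so vehicles 1 and 2 lay above vehicles 3 and 4. The mean was 1.15% ± 0.492 (SD, n = 4), with a CV of 42.7%, the largest of the classes compared beside mitochondrially encoded, sarcomere, respiratory chain and ribosomal genes. All 4 measured globins had a CV over 30%, against 16.6% of all genes. Hbb-bs had 205655, 209610, 80928 and 80669 normalized counts and Hba-a1 165688, 145696, 59499 and 85196. Alas2, the first enzyme of haem synthesis in red cells, had 5786, 5638, 2457 and 2702, with the same samples high. Whether blood left in the tissue differed was not tested, and in tissue samples fewer cells of a type and less RNA per cell cannot be told apart. The 79 genes of cytosolic ribosomal proteins took 2.06%, 1.98%, 1.97% and 1.71%, 1.93% ± 0.154 on average. Their median level was 3977 normalized counts per kilobase, and Rpl36 led at 29629.8 ± 7407. The 78 mitochondrial ribosomal proteins, which serve translation inside mitochondria, took 0.680% ± 0.0430 with a median of 1050.2.

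**Figure D2:**
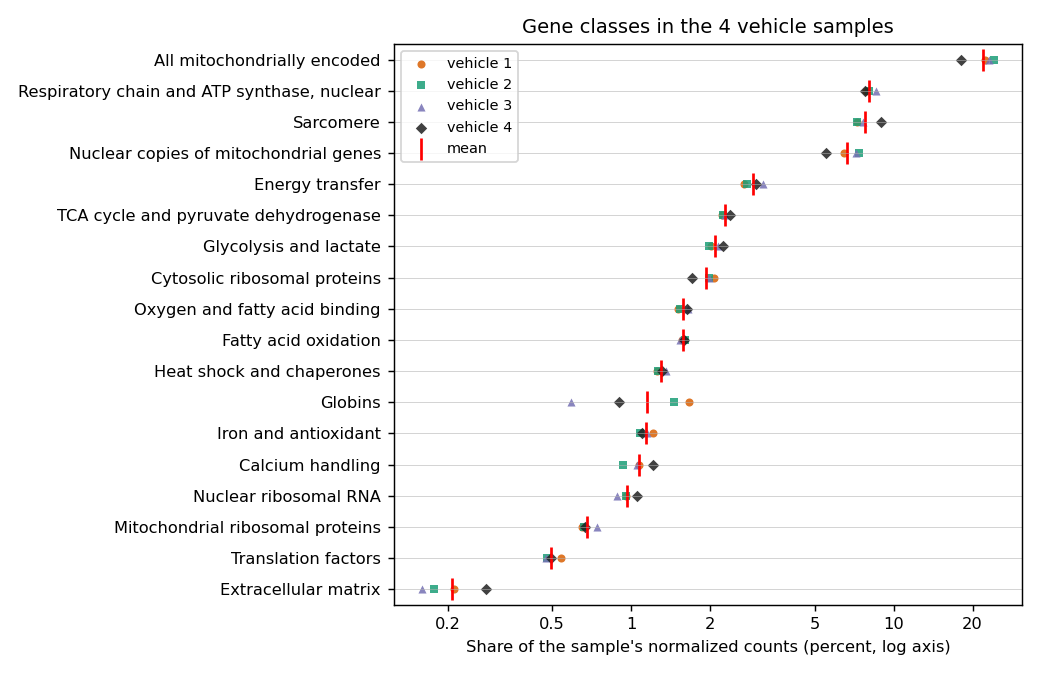
Share of each sample's normalized counts, in percent on a log axis, for 18 gene classes, with 1 point per vehicle sample and a red bar at the mean. Mitochondrially encoded genes lead at 21.9%, and globins spread most, from 0.592% to 1.66%.

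Within most families 1 paralog held nearly all of the length-scaled level. Of 39 sets with at least 2 measured members, 25 were led at 90% or more and 3 at under 60%, and 37 had the same leader in 4 of 4 samples. In the sarcomere, Myh6 held 98.9% ± 0.342 of the myosin heavy chains (SD, n = 4), with the slow form Myh7 at 0.963%. Myh7 had 4436, 3841, 2269 and 3856 normalized counts. Tnni3 held 99.96% ± 0.0105 of troponin I, Tnnt2 99.6% ± 0.0628 of troponin T and Tpm1 97.5% ± 0.494 of the tropomyosins. Actc1 held 91.6% ± 2.85 of the actins of striated muscle, and skeletal actin Acta1 had 27952, 38804, 19013 and 35812 normalized counts. Actc1 and Acta1 encode near-identical proteins, and how well their reads could be told apart was not examined.

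The heart and muscle forms of cytochrome oxidase led unequally. Cox6a2 held 93.5% ± 0.641 over Cox6a1 and Cox8b 90.04% ± 1.30 over Cox8a, in sets of 2. In a set of 3, Cox7a1 held 68.8% ± 0.761, with the liver form Cox7a2 at 22.7% and Cox7a2l at 8.54%. These shares varied by under 1.5 percentage points (SD) between samples but depended on the length used. With no length scaling Cox6a2 held 93.3%, Cox8b 84.0% and Cox7a1 52.0%. In energy transfer, Slc25a4 held 92.8% ± 0.652, Ckm 98.5% ± 0.281 over the brain form Ckb and Vdac1 65.7% ± 0.805 of the outer membrane pores. In fuel use, Cpt1b, the muscle form of the gate for long-chain fatty acids, held 98.2% ± 0.386, Ldhb 89.97% ± 0.177 over Ldha and the insulin-responsive transporter Slc2a4 95.6% ± 0.356 over Slc2a1. Hexokinase and glycogen phosphorylase were shared. Hk2 held 67.8% ± 2.38 with Hk1 at 31.8%, and Pygm 63.7% ± 2.62 with the brain form Pygb at 36.2%. With no length scaling Vdac1 held 49.7%, Ldhb 81.0%, Hk2 59.7% and Pygm 54.0%. Slc25a4, Ckm, Cpt1b and Slc2a4 then held 94.8%, 98.5%, 96.2% and 95.6%. In calcium handling, Atp2a2 held 99.6% ± 0.186 of the reticulum pumps, Ryr2 99.2% ± 0.470 of the release channels and Casq2 96.4% ± 1.41 of the calsequestrins.

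In 3 sets no member held 60% on average. The genes of the ATP synthase c ring, which encode the same mature protein, stood at 44.3% for Atp5g1, 37.9% for Atp5g3 and 17.8% for Atp5g2. This order rests on gene length, since Atp5g3 led with the longest transcript as length. Rpl3 held 61.1%, 52.5%, 45.4% and 46.3% in vehicles 1 to 4 against its striated muscle paralog Rpl3l, so per kilobase of exon it was ahead in vehicles 1 and 2 and behind in vehicles 3 and 4. Rpl3 had 12280.1, 10484, 9083 and 7677 normalized counts and Rpl3l 4050.3, 4909, 5645 and 4609. As counts Rpl3 was thus ahead in all 4 samples. Its mean share was 66.9% with no length scaling, 59.8% with the longest transcript and 67.1% with coding length, so which gene led per length rests on the length used. With union exon length and without vehicle 1, Rpl3l led and Rpl3 stood at 48.1%. The near-identical adult alpha globin genes were about even, with Hba-a2 at 53.2% ± 0.925.

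Among the 39 sets, 3 with an atrial member varied most. Myl2, the ventricular regulatory light chain, held 26.4%, 83.6%, 97.9% and 62.4% against the atrial Myl7, so per kilobase of exon Myl7 led in vehicle 1. The mean share of Myl2 was 67.6% on that scale, 83.1% with no length scaling and 78.3% with the longest transcript. Which gene led in vehicle 1 may thus rest on the length used. Phospholamban, Pln, held 57.1%, 96.5%, 99.5% and 89.2% against the atrial sarcolipin Sln, both inhibitors of the calcium pump. The atrial peptide Nppa held 97.3%, 65.9%, 60.3% and 79.1% against Nppb. Without vehicle 1 the means were 81.3% for Myl2, 95.05% for Pln and 68.4% for Nppa. Myl3 held 95.4%, 99.7%, 99.9% and 99.0% against the atrial Myl4, lowest in vehicle 1 as well.

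**Figure D3:**
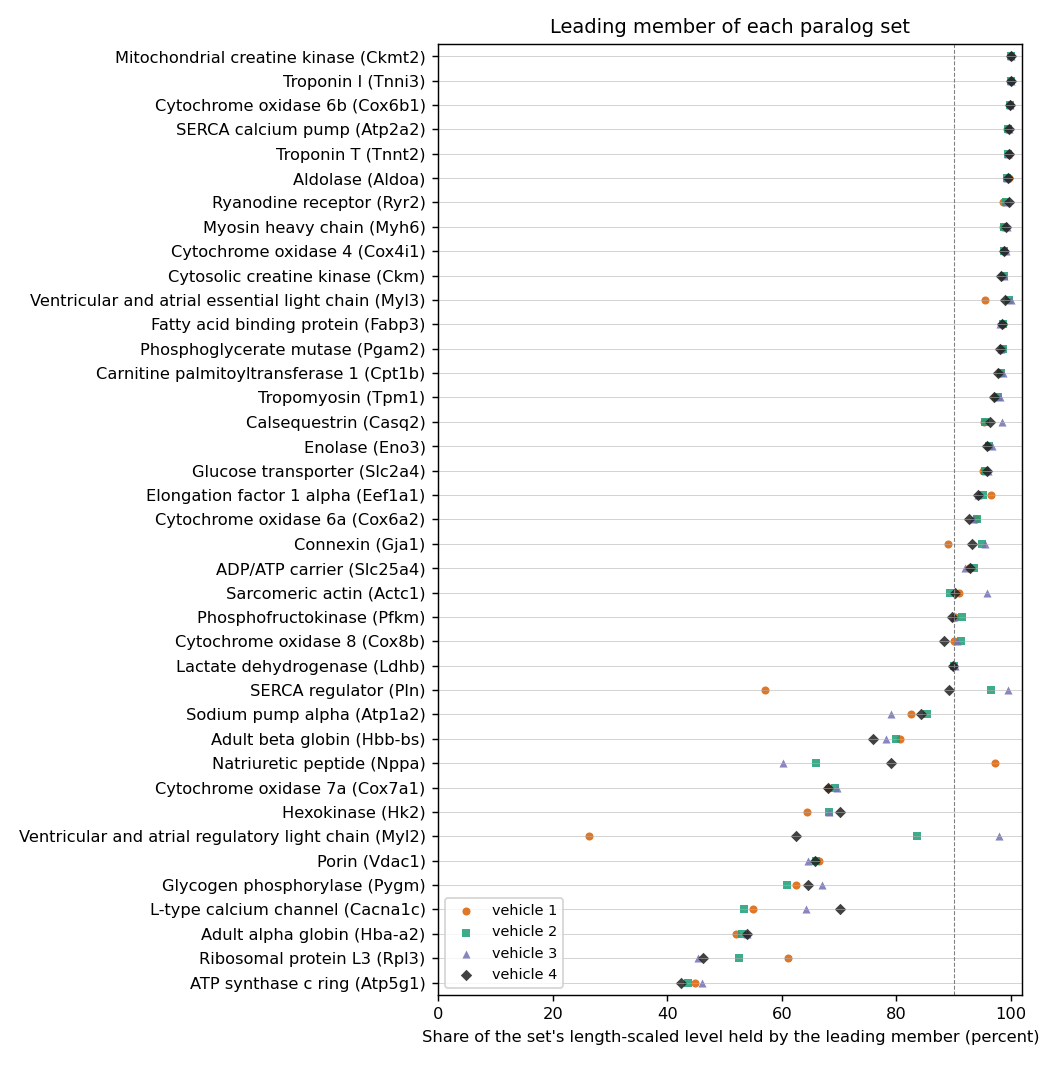
Share of each paralog set's length-scaled level held by its leading member, in percent, for 39 sets with 1 point per vehicle sample; the dashed line marks 90%. Most sets lie at the right with points on top of each other, and Myl2, Pln and Nppa spread widely, with vehicle 1 at one end.

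Across the 13667 genes the median CV over the 4 samples was 15.9%. A CV over 30% was found for 2263 genes, 16.6%, and over 50% for 599, 4.38%. Spread fell with level and then rose again among the most abundant genes. The median CV was 28.5% for means of 10 to 100, 15.3% up to 1000, 10.98% up to 10000, 12.5% up to 100000 and 15.2% for the 41 genes above. Counting error alone, from the estimated reads, would give medians of 14.4%, 5.83%, 2.36%, 0.727% and 0.222%. The measured medians lay above these at every level. A sample stood apart from the other three, with a gap to the nearest past Dixon's 95% critical value, for 953 genes, 6.97%. Of the sarcomere genes 7 of 40 had a CV over 30%, of the nuclear respiratory chain 0 of 85, of cytosolic ribosomal proteins 0 of 79 and of fatty acid oxidation 0 of 21, against 16.6% of all genes. Extracellular matrix genes had 9 of 24 and immediate early genes 18 of 21.

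Among genes with a mean of at least 100, the steadiest was Imp3, a ribosomal RNA processing factor, at 679, 683, 679.8 and 687 normalized counts (CV 0.522%). The kinase Nek7 had 1964, 1954, 1925 and 1919, the phosphatase Dusp3 9996, 10057, 10259 and 10164 and Nup85 of the nuclear pore 691, 709, 694 and 695. The 20 with the largest CV were ranked by spread over these same samples and include atrial markers described further on. Among them 18 were highest in vehicle 1, against 20.2% of all genes. The exceptions were single genes. Zrsr1, related to a splicing factor subunit and known as an imprinted gene in mouse, had 269.7, 235, 7088 and 193, 30.5-fold higher in vehicle 3 than the mean of the others. Hspb1, a small heat shock protein, had 757, 996, 1116 and 4798, 5.02-fold higher in vehicle 4.

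**Figure D4:**
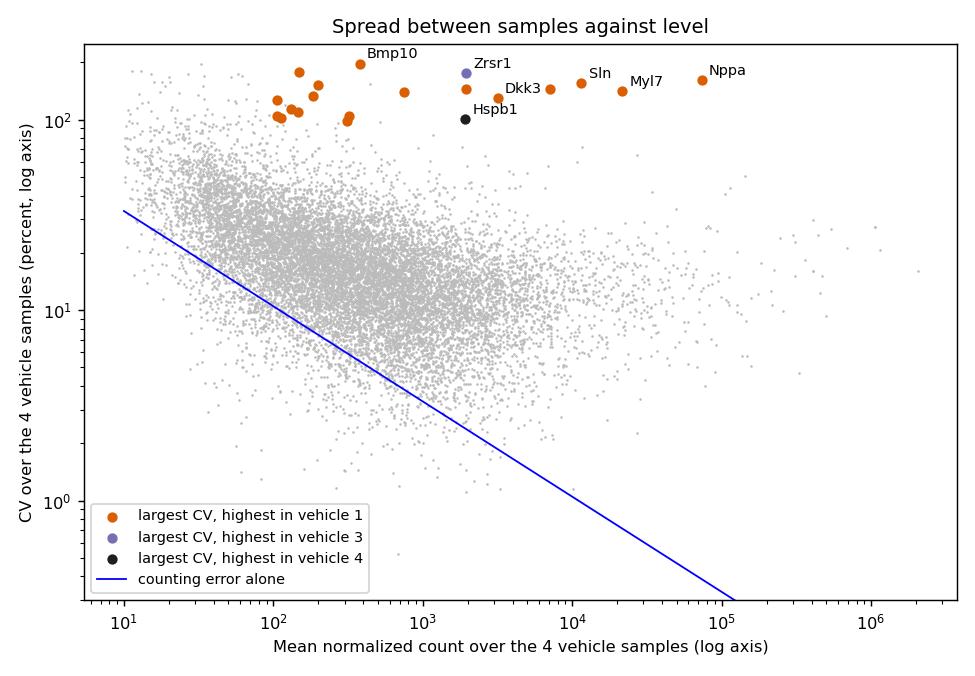
CV over the 4 vehicle samples against mean normalized count, both on log axes, for 13667 genes (grey) and the 20 of largest CV with a mean of at least 100, coloured by the sample that is highest; the blue line is counting error alone. The median CV is 15.9%, and the coloured genes lie near or above 100%, 18 of them highest in vehicle 1, against 20.2% of all genes.

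Vehicle 1 was high in atrial genes. The summed level of 8 atrial markers was 392667, 26389, 13494 and 44013 normalized counts in vehicles 1 to 4, and 8 of 8 were highest in vehicle 1, against 20.2% of all genes. Nppa, the hormone gene of atrial muscle (chromosome 4 from 148000722 to 148002079), had 251480, 14524, 10826 and 17998, 17.4-fold higher in vehicle 1 than the mean of the others. It alone took 0.739% of the counts of vehicle 1. Myl7 had 66872, 5821, 637 and 13152, Sln 38192, 2195, 299 and 5332 and Myl4 22577, 1788, 284 and 3966. In these 4 genes vehicle 3 was lowest, and vehicle 4 was second to vehicle 1. Bmp10, a growth factor of right atrial muscle, had 1497, 0, 18.3 and 0, so it was near 0 in the other three. Gja5, the connexin of atria and conduction fibres, had 1277, 279.7, 259 and 264. The ventricular markers summed to 289236, 356070, 350756 and 254580, lowest in vehicle 4. With all samples scaled to an equal total the sums were 293246, 332520, 327639 and 291852, so vehicle 4 then lay close to vehicle 1. Of the 5 ventricular markers as deposited, 2 were lowest in vehicle 1, against 22.6% of all genes. The part of heart tissue in each sample is not given in the labels, and its share in these differences was not tested.

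The promoters of Myl7 and Nppa are shown because these genes led the difference and carry unlike motifs. The windows and the build are those given for Actc1.
Myl7 (chr11:5898783-5899032, minus strand): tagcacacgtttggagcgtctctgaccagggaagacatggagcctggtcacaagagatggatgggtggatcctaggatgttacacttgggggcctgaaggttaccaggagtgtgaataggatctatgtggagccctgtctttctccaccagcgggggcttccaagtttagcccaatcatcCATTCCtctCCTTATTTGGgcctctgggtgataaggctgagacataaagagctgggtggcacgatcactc
Nppa (chr4:148000472-148000721, plus strand): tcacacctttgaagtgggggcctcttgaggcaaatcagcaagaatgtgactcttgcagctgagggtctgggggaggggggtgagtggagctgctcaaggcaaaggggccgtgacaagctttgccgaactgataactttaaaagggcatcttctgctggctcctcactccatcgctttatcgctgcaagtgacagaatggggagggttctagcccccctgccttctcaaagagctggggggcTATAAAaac

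In Myl7 the capitals mark CATTCC at 70 and a CArG box at 61 bases before the start. In Nppa they mark TATAAA at 9 bases before the RefSeq start, with none of the other motifs searched. Of 6 atrial genes with a window, 1 held a CArG box and 2 held CATTCC, against 1.45% and 13.1% of genes in the table.

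Vehicle 1 was low in immediate early genes, transcription factors and regulators that cells switch on within minutes of a stimulus. Their sum was 11167, 45996, 40585 and 43334 normalized counts, and 20 of 21 were lowest in vehicle 1, against 22.6% of all genes. Fos had 31.1, 1588, 1168 and 924, 39.5-fold higher in the mean of the others than in vehicle 1. Egr1 had 141, 3005, 3399 and 3859, Nr4a1 443, 3626, 3933 and 2976 and the antiproliferative Btg2 1561, 11051, 7602 and 7449.6. Ier3 spread less, at 2322, 2832, 2997 and 2658, and Myc was the exception, lowest in vehicle 3 (116, 169, 96.8 and 179). How long tissue stood before it was preserved is not given in the labels, and its part was not tested. Platelet markers were highest in vehicle 1 in 4 of 4 and epicardial markers in 5 of 6, against 20.2% of all genes, the latter led by Upk3b with 381, 109, 47.3 and 44.4. Itga2b, the platelet integrin, had 593, 104, 83.9 and 261. The exception among epicardial markers was Wt1, at 98.0, 103, 125 and 77.7.

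Vehicle 4 had the lowest total and differed by transcript length. It was highest in 35.8% and lowest in 31.7% of genes, more often than any other sample in both. With all samples scaled to an equal total, which raises vehicle 4 by 0.20 on the log2 scale, it was highest in 8088 and lowest in 1599 of the 13667 genes. The median log2 difference of vehicle 4 from a gene's mean over the samples was -0.32 for 25 protein-coding genes with a longest transcript of up to 500 bases. It was -0.25 up to 1000 bases, -0.12 up to 2000, -0.04 up to 4000, 0.13 up to 8000 and 0.30 for 622 genes above. Vehicles 2 and 3 ran the other way, from 0.15 to -0.15 and from 0.16 to -0.07. The long genes Ttn, Myh6 and Atp2a2, the calcium pump of the reticulum, were highest in vehicle 4. Ttn had 74099.8, 66264, 76901 and 116798 normalized counts, Myh6 254705, 255879, 279405 and 410950 and Atp2a2 78141, 71452, 100142 and 125507.

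Ribosomal protein genes were low in vehicle 4. All 79 cytosolic ribosomal protein genes were lowest there, against 31.7% of all genes, with a sum of 701474, 732904, 727503 and 514015. With equal totals 65 of 79 were lowest there, against 1599 of all 13667 genes. Their medians of the log2 difference in vehicle 4 were -0.37 for 35 genes with transcripts of up to 1000 bases and -0.34 for 42 genes of 1000 to 4000. Nuclear respiratory chain genes were lowest in vehicle 4 in 76 of 85 and highest in vehicle 3 in 75 of 85, where 23.1% of all genes were highest. With equal totals these counts were 55 and 65, against 1599 and 1468 of all 13667 genes. Their sum was 2666870, 2978970, 3167790 and 2332370. With equal totals the sum was 2703840, 2781940, 2959010 and 2673840, so vehicle 4 then lay close to vehicle 1. As a share per length vehicle 4 was second highest, at 8.53% beside 8.76% in vehicle 3. Of extracellular matrix genes 22 of 24 were highest in vehicle 4, against 35.8% of all genes. With equal totals it was also 22 of 24, where 8088 of all 13667 genes were highest there. Among the 22 were the collagens Col1a1 with 1774, 1342, 1138 and 3595 and Col3a1 with 2305, 1809, 1336 and 2959.9. Sparc, a matrix glycoprotein, had 17033, 16299, 16871 and 18083, a small spread. Endothelial markers summed to 19770.1, 20490, 20583 and 20417, and with equal totals to 20044, 19135, 19227 and 23406.

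**Figure D5:**
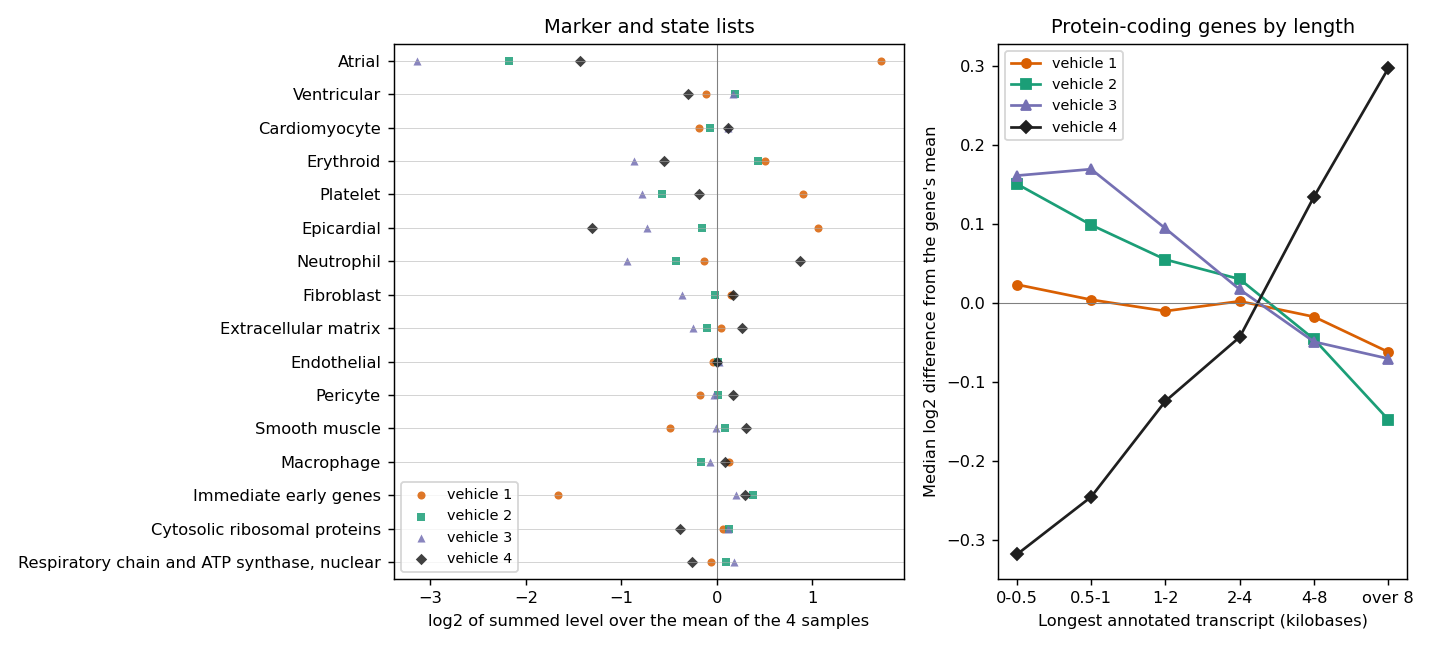
Left: log2 of the summed normalized counts of each list over the mean of the 4 vehicle samples, 1 point per sample. Right: median log2 difference from the gene's mean for protein-coding genes grouped by longest annotated transcript, 1 line per sample. Vehicle 1 lies apart in atrial and immediate early genes, and vehicle 4 runs from -0.32 for the shortest to 0.30 for the longest transcripts.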

How the data were processed

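Gene expression was measured by RNA sequencing, and 4 vehicle heart samples were analysed. Libraries were made with a SMARTer kit and RNA was extracted with a Maxwell instrument, per the labels' protocols. The authors deposited a signal value for every gene in each sample, which the file calls normalized counts. The submitters' processing notes list DESeq2, Partek and STAR 2.5.1a but not what each was used for. The build, the gene models and the strandedness of counting are not stated there or given in the sources used here. Overlapping, antisense and near-identical genes cannot be told apart. Low values lay on a fixed step per sample, which gave the estimated reads. Of values from 1 to 1000 such reads, 74.0% to 75.9% lay within 0.02 of a whole read, so whole reads were not recovered and no count test was run.

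With 1 group there was no test. Shares, sums, means, SDs and CVs were computed with Python 3.11.15, pandas 2.3.3 and numpy 2.4.6, over 13667 genes with a mean of at least 10 for spread and over all 13795 for shares. Lengths are union exon lengths in GENCODE M21 on GRCm38, matched by symbol for 13589 genes and through RefSeq names for 140, with 66 unmatched; 27 symbols had several entries. Nuclear copies were found with BLAST 2.17.0. A sample was called apart where its gap to the nearest other, over the range of the group, passed Dixon's 95% critical value. The steps were tested on simulated data.

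Members, 47 gene lists and 40 paralog sets were chosen with earlier results of these data known. The rule for nuclear copies, the ribosomal protein list, the classes by length and the promoters shown were chosen after seeing the values. Named genes follow a rule: the 25 of highest share, the 15 of highest level per length, the 3 highest per length and the most variable of each class, all paralogs, the 20 largest and 10 smallest CVs among means of at least 100, and the 2 highest of each marker list. Genes outside it, named as further examples, were chosen after their values were seen. In the results these are Alas2, Col3a1, Csrp3, Egr1, Fos, Gm10222, Gm28438, Gm28439, Ier3, Itga2b, Mybpc3, Myc, Nr4a1, Ttn, mt-Nd4l and mt-Nd6. Alternatives were denominators, lengths, scalings, filters, pseudocounts and leaving out each sample. A gene and a paralog set are not reported here. Counting nuclear copies as mitochondrial was added after seeing the data.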

Additional observations from a re-analysis of the deposited data

Results flagged for a closer look

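A sample lay apart from the other three, by Dixon's criterion, in 27 of 334 lists, paralog sets and genes checked, and chance flags about 1 in 20 groups. The genes checked include those named for the largest CVs, so their rate cannot be set against that of chance. The value given is the gap to the nearest sample over the range of the 4. Summed levels were apart for atrial markers (0.920, vehicle 1 highest) and immediate early genes (0.845, vehicle 1 lowest).

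Vehicle 1 was apart and highest in the atrial genes Nppa (0.970), Bmp10 (0.988), Sln (0.867) and Myl4 (0.835), and in Gja5 of atria and conduction fibres (0.979). It was so in Fgf12 (0.928), Mlana (0.952), Rab3b (0.837) and Sbk3 (0.897), and in the platelet genes Pf4 (0.905) and Tubb1 (0.874). The antioxidant enzyme gene Gpx3 (0.879) had 53329.5, 16259, 17563 and 20756 normalized counts. The macrophage gene Lyz2 (0.927) had 5030.2, 3816, 3891 and 3905, the glial gene Cnp (0.901) 583, 516, 509 and 515 and the fast-muscle calcium pump Atp2a1 (0.919) 58.8, 10.1, 13.6 and 14.0.

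Vehicle 4 was apart and highest in Hspb1 (0.911) and Myh6 (0.842), and lowest in mt-Rnr1 (0.941), Rpl36 (0.834) and Rplp1 (0.860). Vehicle 3 was highest in Zrsr1 (0.989), Slc25a5 (0.854) and Pgam2 (0.865) and lowest in Cpt1a (0.867). Vehicle 2 was highest in the pseudogene Rps23-ps1 (0.913). Over all 13667 genes 953 had a sample apart, 6.97%, of which 390 had vehicle 4 highest and 122 vehicle 1 highest.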

How the results depend on the processing

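No paired analysis was possible because the samples form 1 group. Counting nuclear copies as mitochondrial, an alternative added after seeing the data, gave a mitochondrial share of 28.6%. With nuclear genes alone as the total, the share was 9.93% for sarcomere, 10.3% for nuclear respiratory chain and 2.48% for ribosomal genes, and without globins as well 10.1%, 10.5% and 2.52%. These totals left out only the mitochondrially encoded genes and kept their nuclear copies, which held 6.65% of all counts. Per length the nuclear total gave 6.79%, 12.8% and 3.14%, and 3.85% for globins. The longest transcript as length gave 29.9% for mitochondrially encoded, 5.87% for sarcomere, 9.64% for respiratory chain and 2.65% for ribosomal genes. Among nuclear genes, the copies included, 167 held 50% of counts. A CV over 30% was found for 3437 genes after scaling to equal totals, which moved vehicle 4 by 0.20 and vehicle 2 by -0.10 on the log2 scale, and for 808 at a mean of at least 100, where fewer genes were counted. As the log2 of vehicle 1 over the mean of the others, the mean of log2 values gave -2.15 for immediate early genes and 1.84 for platelet markers; cardiomyocyte markers in vehicle 4 were at 0.32 with equal nuclear totals. Leaders changed in 3 cases: the share of the former leader was 25.4% for Atp5g1 with the longest transcript, 48.3% for Hba-a2 without length scaling, and 48.1% for Rpl3 without vehicle 1. Rpl3 held 66.9% with no length scaling and 59.8% with the longest transcript. Leaving out 1 sample gave 21.2 to 23.2% for mitochondrially encoded, 7.38 to 7.94% for sarcomere, 7.88 to 8.16% for respiratory chain, 0.983 to 1.34% for globins and 1.89 to 2.005% for ribosomal genes, and per length 33.9 to 35.9%, 4.19 to 4.61%, 8.21 to 8.45%, 2.16 to 2.93% and 2.01 to 2.07%. For Rpl3 it gave 48.1 to 53.3%. It gave 67 to 78 genes for 50% of counts, 23 to 27 sets led at 90%, 1685 to 2495 genes with a CV over 30% (fewest without vehicle 4) and a median CV of 11.6 to 16.4%. As log2 ratios to the mean of the others it gave 3.48 to 4.30 for atrial, 0.48 to 1.20 for erythroid, 1.27 to 1.58 for platelet and -1.9999 to -1.91 for immediate early genes in vehicle 1, and 0.09 to 0.24 for cardiomyocyte and 0.11 to 0.35 for fibroblast markers in vehicle 4. Of 366 values under an alternative 305 moved by less than 1 SD, or stayed within 1.5 times for a count. Depth limits genes with means under 100. The cause of these moves was not tested beyond what each alternative changes by construction.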

Other observations

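Of 14 clock genes 2 had a CV over 30%, against 16.6% of all genes. Nr1d1, a repressor of the clock, had 4553, 5064, 3581 and 4216 normalized counts and Dbp, one of its outputs, 859.6, 929.7, 1063 and 1219. Arntl, the activator of the clock, was low in all, at 84.9, 32.4, 18.3 and 25.2, highest in vehicle 1. Per1 had 344, 504, 429 and 1111, highest in vehicle 4. Of 14 glucocorticoid and FoxO responsive genes, 11 were lowest in vehicle 1, against 22.6% of all genes. Sgk1, a kinase gene induced by glucocorticoids, had 1415, 4198, 5311 and 4205, and Zbtb16 557, 1019, 1453 and 1764. Pdk4, the inhibitor of pyruvate dehydrogenase, had 2365, 2735, 2852 and 2599 and varied little.

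Neutrophil markers were highest in vehicle 4 in 5 of 5, against 35.8% of all genes, with S100a8 at 94.4, 54.7, 38.7 and 274 and Retnlg at 9.56, 5.59, 16.1 and 94.8. All 5 conduction system markers were highest there too, with the pacemaker channel gene Hcn4 at 49.0, 43.6, 120.5 and 136 and Cntn2 at 219, 111, 195 and 438. With equal totals both lists stayed at 5 of 5, where 8088 of all 13667 genes were highest in vehicle 4. Of adipocyte markers 4 of 5 were highest in vehicle 2, against 21% of all genes (2 of 5 with equal totals), with Cfd at 139.8, 305, 139.8 and 299 and Cidec at 22.7, 118, 18.3 and 37.3. The smooth muscle genes Myh11 and Tagln had 433, 840, 357 and 1148 and 924, 1955, 828 and 1918. Myl1, the essential light chain of fast skeletal muscle, had 6669, 2049.5, 3525 and 2841, while the fast troponin genes Tnni2 and Tnnt3 had 38.2, 42.4, 37.6 and 32.3 and 8.37, 3.35, 5.38 and 12.1. The Y-linked genes Ddx3y, Eif2s3y, Kdm5d and Uty were present in all 4 samples, with Ddx3y at 1562, 1571, 1462 and 1062.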
